A study of Mus musculus with 6 samples.

Results

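The genes that write and erase DNA methylation were followed in mouse embryonic stem (ES) cells, a pluripotent cell type grown from the early embryo. The set was chosen by name and holds 9 genes. They are the maintenance pair Dnmt1 and Uhrf1, the de novo group Dnmt3a, Dnmt3b and Dnmt3l, the dioxygenases Tet1, Tet2 and Tet3, and the glycosylase Tdg. This set and the gene lists below were chosen with earlier results of these data known, so their counts of called genes are descriptions only. All 9 were found by symbol among the 55401 Ensembl gene identifiers of the count table, and all 9 passed the filter on low counts that left 17778 genes for testing. Polyadenylated RNA was sequenced from 6 libraries. The 3 libraries labelled KO came from cells given doxycycline, and the 3 libraries labelled 3XHA-Taf13 expressing cells came from untreated cells. TAF13 is a subunit of TFIID, the complex that recruits RNA polymerase II to promoters, and the series compares libraries under these labels after 7 days of culture. Each library is a separate Petri dish. The label KO and the drug come together in every case, so their effects cannot be told apart. Strain, clone and the alleles behind the label are not stated in the labels, and the dishes may share a starting culture, in which case p-values measure the spread between dishes only.

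DNA methylation in mammals is laid on cytosines of CpG dinucleotides. DNMT3A and DNMT3B place it on unmethylated DNA, and DNMT3L, which has no catalytic activity of its own, binds and stimulates them. UHRF1 recognises hemimethylated CpGs behind the replication fork and brings in DNMT1, which copies the mark to the new strand. TET enzymes oxidise the methyl group stepwise, and TDG excises the most oxidised forms so that base excision repair can restore an unmodified cytosine. Mouse ES cells are known for high Tet1 and for changing de novo enzyme levels as they pass between the naive, formative and extraembryonic endoderm states.

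Total counts ran from 33953189 to 50328010 in the libraries labelled KO and from 31219328 to 45957003 in the expressing libraries. Taf13 itself was counted 422, 634 and 699 times in the libraries labelled KO, against 244, 445 and 447 times in the expressing libraries, so the targeted gene was not lower and does not check the labels; gene counts do not separate tagged from chromosomal Taf13. Of the 17778 tested genes, 40.0% passed the test (edgeR's quasi-likelihood test, Benjamini-Hochberg adjusted p under 0.05 over all tested genes), 19.2% upward and 20.8% downward in the libraries labelled KO, with a median log2 fold change of -0.01. Scaled by library totals alone, 63.5% of called genes were higher, against 48.1% here, and the median was 0.08. Expressing replicate 1 stood apart, with a chi-square per degree of freedom of 37.2 and 29.8 against the other expressing libraries, where the other pairs within a group gave 3.49 to 6.29. Values without it are given below. ES cell markers were present in all 6 libraries: the 13 listed pluripotency genes summed to between 2543 and 2575 CPM (read counts scaled to library size by TMM) in the libraries labelled KO, against 3984 to 4137 CPM in the expressing libraries, with none at 0. In bulk RNA, fewer cells of a type and less RNA per cell cannot be told apart.

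The start regions of the de novo genes are shown first, because this group holds the largest decrease among the 9 genes (Dnmt3b) and the gene that rose (Dnmt3l). The windows run from 250 bases before to 50 after a RefSeq start site (GRCm38.p6, the mm10 build), all on the plus strand, with CpG dinucleotides in capitals. Dnmt3a has several start sites, of which the internal one is known as the source of the short isoform prominent in ES cells. Dnmt3l has 3 listed start sites, and only the window of the most upstream is shown. That window lies within the bounds of the neighbouring gene Aire (78030022 to 78043610). The other Dnmt3l starts, at 78049842 and 78055335, lie outside Aire. The counts are per gene and do not separate isoforms or show which start was used.
Dnmt3l, chr10:78042037-78042336: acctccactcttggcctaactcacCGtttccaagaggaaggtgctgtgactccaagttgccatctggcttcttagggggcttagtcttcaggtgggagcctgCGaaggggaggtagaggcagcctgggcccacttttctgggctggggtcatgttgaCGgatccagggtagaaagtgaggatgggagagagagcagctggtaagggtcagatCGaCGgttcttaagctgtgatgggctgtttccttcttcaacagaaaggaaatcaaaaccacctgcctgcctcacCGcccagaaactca
Dnmt3b, chr2:153649199-153649498: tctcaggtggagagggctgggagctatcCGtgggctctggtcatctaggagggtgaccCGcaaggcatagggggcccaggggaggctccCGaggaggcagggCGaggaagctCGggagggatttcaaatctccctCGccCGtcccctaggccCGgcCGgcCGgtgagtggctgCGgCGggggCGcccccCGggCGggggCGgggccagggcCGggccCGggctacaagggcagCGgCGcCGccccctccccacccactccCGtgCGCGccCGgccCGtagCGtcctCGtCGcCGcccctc
Dnmt3a, first start, chr12:3806730-3807029: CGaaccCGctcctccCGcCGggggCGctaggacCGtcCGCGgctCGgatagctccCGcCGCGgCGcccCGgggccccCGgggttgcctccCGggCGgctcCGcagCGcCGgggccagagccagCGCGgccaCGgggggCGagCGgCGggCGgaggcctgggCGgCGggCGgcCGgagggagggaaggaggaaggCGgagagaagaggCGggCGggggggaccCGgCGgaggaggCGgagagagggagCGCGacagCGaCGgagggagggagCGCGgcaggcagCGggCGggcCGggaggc
Dnmt3a, internal start, chr12:3891494-3891793: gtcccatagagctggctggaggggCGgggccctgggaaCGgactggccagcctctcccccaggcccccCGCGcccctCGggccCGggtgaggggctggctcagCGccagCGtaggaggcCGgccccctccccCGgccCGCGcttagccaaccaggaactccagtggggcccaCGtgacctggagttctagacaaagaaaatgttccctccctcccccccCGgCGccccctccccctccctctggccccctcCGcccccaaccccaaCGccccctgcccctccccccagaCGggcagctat

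These windows differed in CpG content. The first Dnmt3l window held 6 CpGs and its other windows in the table held 4 and 3, while the Dnmt3b window held 30 and the Dnmt3a windows 46, 47 and 18. Over all 32851 windows of this length the median was 7. Of the 16 windows listed for the 9 genes, 8 exceeded both a GC content of 50% and an observed-to-expected CpG ratio of 0.6. These limits were passed by 33.3% of all windows. None of the 8 belonged to Dnmt3l or to Tet3 (ratio 0.576). The internal Dnmt3a window (ratio 0.468) was not among the 8 either. The core promoter word TATAAA, searched on both strands, was in 0 of the 16 windows, against 13.6% of all windows. The word GGGCGG, searched on both strands, was in 12 of the 16, against 35.7% of all. A match or its absence describes these letters only.

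Among the 9 genes, 5 fell and 1 rose in the libraries labelled KO, against 20.8% and 19.2% of all tested genes. Dnmt3b showed the largest decrease of the 9 (log2 fold change -1.07), followed by Dnmt3a, Tet2, Uhrf1 and Tet1. Dnmt3l went the other way and rose. Dnmt1, Tet3 and Tdg did not pass the test. The median log2 fold change of the 9 was -0.37. The CPM ranges of the groups did not overlap for 8 of the 9, against 53.5% of all tested genes (26.4% with the libraries labelled KO above and 27.1% with them below).

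**Figure D1:**
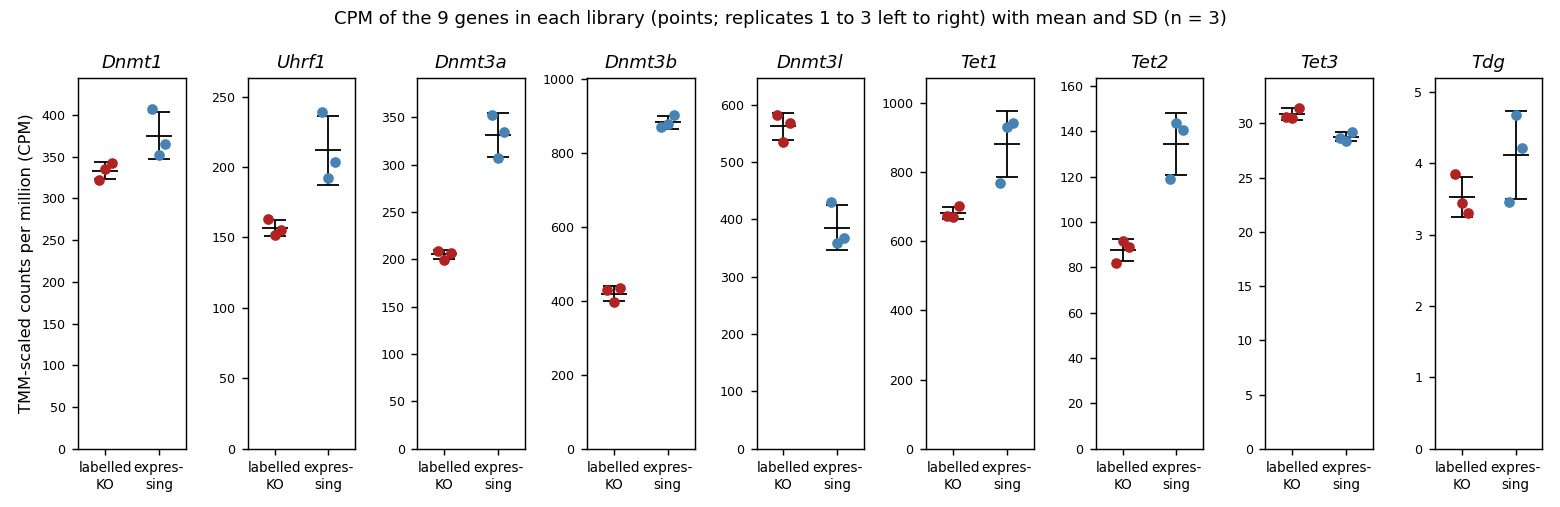
TMM-scaled CPM (vertical axes from 0, one scale per gene) of the 9 genes in the libraries labelled KO (red, left) and the expressing libraries (blue, right), with mean and SD of 3 libraries. The groups are apart for every gene but Tdg, and only Dnmt3l and Tet3 lie higher in the libraries labelled KO.

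Dnmt3b (ENSMUSG00000027478, chromosome 2, 153649450 to 153687730, mm10) encodes the de novo methyltransferase that rises as ES cells leave the naive state. It stood at 428.8, 396.9 and 434.3 CPM in the libraries labelled KO, against 869.6, 878.3 and 902.8 CPM in the expressing libraries. The KO-labelled values lay at about 0.475 of the others, and every library of one group was below every library of the other. The log2 fold change was -1.07 (SE 0.0555, 95% interval -1.20 to -0.95, adjusted p = 2.61e-06, edgeR). Of its 50-base stretches 9.81% also occur in Dnmt3c, a rodent-specific copy of Dnmt3b used in the male germline, but Dnmt3c had only 11, 6 and 13 counts in the libraries labelled KO, against 4, 9 and 8 in the expressing libraries. The non-coding Dnmt3bos, annotated on the opposite strand over the Dnmt3b start, had 49, 35 and 39 counts in the libraries labelled KO, against 21, 21 and 15 in the expressing libraries; its log2 fold change of 0.90 (SE 0.327) did not pass (adjusted p = 0.0535, edgeR). No exon of it overlaps an exon of Dnmt3b.

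Dnmt3a (ENSMUSG00000020661, chromosome 12, 3806007 to 3914443) encodes the second active de novo enzyme. It had 209.0, 199.1 and 207.1 CPM in the libraries labelled KO, against 352.7, 306.9 and 334.0 CPM in the expressing libraries. Again the groups were far apart relative to their spread, at 205.1 ± 5.25 CPM in the libraries labelled KO and 331.2 ± 23.0 CPM in the expressing libraries (SD, n = 3 each). The log2 fold change was -0.69 (SE 0.0639, 95% interval -0.83 to -0.55, adjusted p = 4.89e-05, edgeR), which is smaller in size than that of Dnmt3b. Within each library, the ratio of Dnmt3b to Dnmt3a counts per kilobase was 6.69, 6.50 and 6.83 in the libraries labelled KO, against 8.04, 9.33 and 8.81 in the expressing libraries. Such a ratio does not move with library scaling, and its groups did not overlap.

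Dnmt3l (ENSMUSG00000000730, chromosome 10, 78041947 to 78063622), the non-catalytic partner of both enzymes, had 582.1, 535.9 and 569.0 CPM in the libraries labelled KO, against 430.5, 358.1 and 367.6 CPM in the expressing libraries. All 3 libraries labelled KO were above all 3 expressing libraries. It was higher by 0.55 on the log2 scale (SE 0.0762, 95% interval 0.37 to 0.72, adjusted p = 0.000495, edgeR), or 1.46-fold in mean CPM. The most upstream start region of Dnmt3l overlaps the 5′ end of Aire, which is transcribed from the opposite strand. Aire encodes a regulator of tissue-restricted genes known from the thymus. The outermost annotated starts of the genes are 1663 bases apart, and 67 bases of exon, 2.24% of the Dnmt3l exon length, are common to both. Aire had 670, 758 and 917 counts in the libraries labelled KO, against 303, 356 and 270 in the expressing libraries. It rose by 1.098 on the log2 scale (SE 0.113, adjusted p = 8.58e-05, edgeR), with 17.93 ± 1.20 CPM in the libraries labelled KO and 8.39 ± 1.19 CPM in the expressing libraries (SD, n = 3 each). The strand option used in counting is not known, so reads of the overlap may not be fully separated by gene.

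The balance within the de novo group differed between the groups of libraries. Ratios are given as descriptions, with no test. The ratio of Dnmt3l to Dnmt3a counts per kilobase was 15.5, 15 and 15.3 in the libraries labelled KO, against 6.80, 6.50 and 6.13 in the expressing libraries, a 2.36-fold difference. The ratio of Dnmt3l to Dnmt3b, which was added after the values were seen, was 2.32, 2.31 and 2.24 in the libraries labelled KO, against 0.846, 0.697 and 0.696 in the expressing libraries, a 3.07-fold difference. In both ratios the highest expressing library was far below the lowest library labelled KO.

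**Figure D2:**
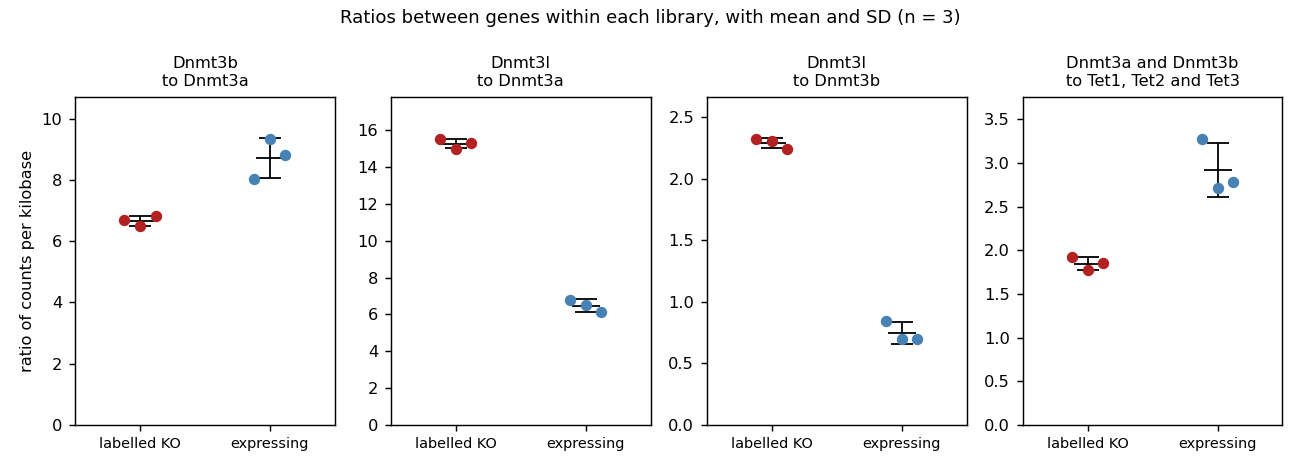
Ratios of counts per kilobase of exon between genes within each library (vertical axes from 0), libraries labelled KO in red at left and expressing libraries in blue at right, with mean and SD of 3 libraries. Both Dnmt3l ratios are higher in the libraries labelled KO, at 15 to 15.5 against 6.13 to 6.80 for Dnmt3l to Dnmt3a, and the remaining ratios are lower.

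The maintenance pair changed less. Uhrf1 (ENSMUSG00000001228, chromosome 17, 56303321 to 56323486) had 162.8, 151.6 and 155.4 CPM in the libraries labelled KO, against 239.0, 192.5 and 203.8 CPM in the expressing libraries. The groups did not overlap, though expressing replicate 1 lay well above its 2 companions. The log2 fold change was -0.44 (SE 0.0818, 95% interval -0.62 to -0.25, adjusted p = 0.00257, edgeR). Of the 50-base stretches of Uhrf1, 14.7% also occur in Gm5648, a processed pseudogene on the X chromosome. Gm5648 held at most 8 counts in any library.

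Dnmt1 (ENSMUSG00000004099, chromosome 9, 20907209 to 20959888), which encodes the maintenance methyltransferase itself, had 322.4, 334.6 and 342.8 CPM in the libraries labelled KO, against 406.6, 352.5 and 365.7 CPM in the expressing libraries. The groups did not overlap, but the gap between the nearest libraries was narrow. The log2 fold change of -0.17 (SE 0.0652, 95% interval -0.32 to -0.02) did not pass (adjusted p = 0.064, edgeR). It passed without expressing replicate 2 (-0.21, adjusted p = 0.0373) and with a trend of GC content removed (-0.12, adjusted p = 0.0125; with the replicate block as well, -0.12 and 0.0172), while over all 14 alternatives its adjusted p ran from 0.0125 to 0.405. Without expressing replicate 1 the value was -0.08. Genes of DNA replication moved in the same libraries. Of 21 listed S phase genes 19 fell and 0 rose (edgeR), against 20.8% and 19.2% of all tested genes. DESeq2 and an unadjusted p under 0.05 also gave 0 of these S phase genes upward. Mcm3, a subunit of the replicative helicase and the most abundant of them, changed by -0.48 (SE 0.0692, adjusted p = 0.000621, edgeR), and Ccne1, the cyclin of S phase entry, by -0.68 (SE 0.0611, adjusted p = 4.28e-05, edgeR). The list's median change was -0.36 on the log2 scale, with a summed level of 3572 to 3704 CPM in the libraries labelled KO, against 4662 to 4960 CPM in the expressing libraries. Their part in the Uhrf1 and Dnmt1 values was not tested.

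**Figure D3:**
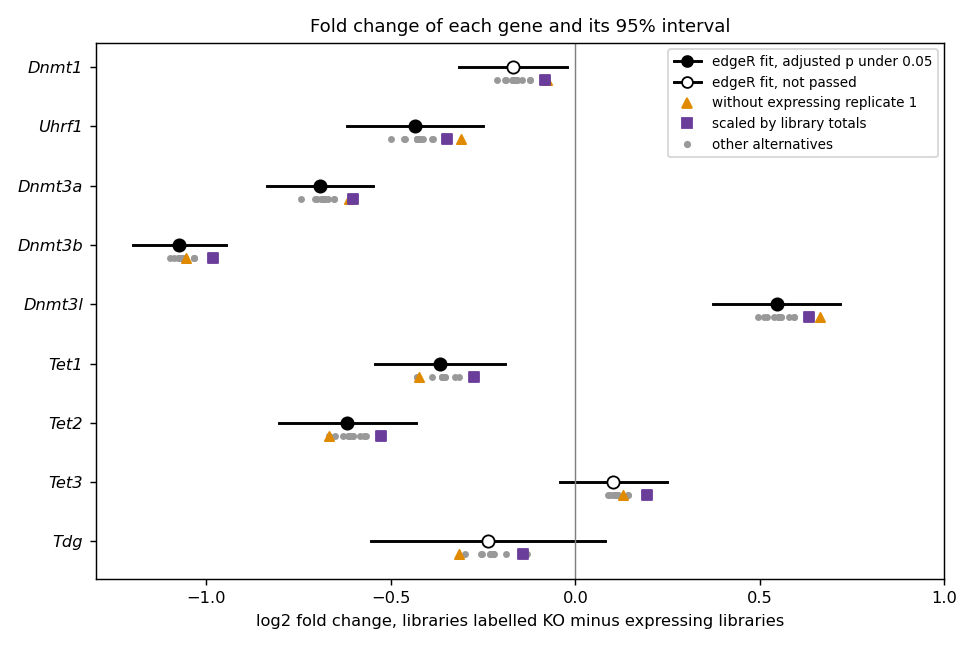
Log2 fold change of each gene, libraries labelled KO minus expressing libraries, with its 95% interval (line) from edgeR, filled where the adjusted p was under 0.05. Smaller marks below each line give the alternatives; Dnmt3b stays between -1.10 and -0.98 and Dnmt3l between 0.495 and 0.66 in all of them.

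Of the oxidising enzymes, Tet1 and Tet2 fell and Tet3 did not pass. Tet1 (ENSMUSG00000047146, chromosome 10, 62804570 to 62908996), the main TET gene of ES cells, had 673.0, 670.7 and 702.0 CPM in the libraries labelled KO, against 769.1, 929.1 and 940.1 CPM in the expressing libraries. The nearest libraries were expressing replicate 1 and KO replicate 3, and the groups did not overlap. The log2 fold change was -0.37 (SE 0.0778, 95% interval -0.54 to -0.19, adjusted p = 0.00488, edgeR).

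Tet2 (ENSMUSG00000040943, chromosome 3, 133463679 to 133545139), known as a gene that OCT4 keeps active in ES cells, had 82.0, 91.7 and 89.2 CPM in the libraries labelled KO, against 119.0, 143.8 and 140.7 CPM in the expressing libraries. Every library labelled KO was below every expressing library. Its log2 fold change was -0.62 (SE 0.0826, 95% interval -0.80 to -0.43, adjusted p = 0.000383, edgeR).

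Tet3 (ENSMUSG00000034832, chromosome 6, 83362373 to 83459084), the TET gene best known from the oocyte and zygote, had 30.6, 30.5 and 31.5 CPM in the libraries labelled KO, against 28.7, 28.4 and 29.2 CPM in the expressing libraries. These values were tight and did not overlap, yet the difference was small: its log2 fold change was 0.10 (SE 0.0647, 95% interval -0.04 to 0.25, adjusted p = 0.235, edgeR). The interval excludes a change of 2-fold in either direction. Over the alternatives its adjusted p ran from 0.0518 to 0.464.

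Summed writers and summed erasers were also set against each other. The ratio of Dnmt3a and Dnmt3b to the sum of Tet1, Tet2 and Tet3, per kilobase, was 1.92, 1.77 and 1.85 in the libraries labelled KO, against 3.27, 2.71 and 2.78 in the expressing libraries. Expressing replicate 1 was the highest, and without it the log2 difference was -0.57 in place of -0.65. In plain counts, where long genes weigh more, the difference was -0.58.

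Tdg (ENSMUSG00000034674, chromosome 10, 82629828 to 82650799) was counted only 134, 155 and 170 times in the libraries labelled KO, against 108, 206 and 154 times in the expressing libraries. These are 3.84, 3.44 and 3.29 CPM in the libraries labelled KO, against 3.46, 4.67 and 4.21 CPM in the expressing libraries, and the groups overlapped. The log2 fold change was -0.24 (SE 0.141, 95% interval -0.55 to 0.08, adjusted p = 0.211, edgeR). Tdg has processed pseudogenes with long identical stretches, and 78.9% of the 50-base stretches of its coding sequence occur in at least 1 of Tdg-ps, Gm9855 and Gm5597. The 60 coding bases below (chr10:82638782-82638841, plus strand) are shown because they are identical in all 3, so that a short read from them matches several loci.
Tdg: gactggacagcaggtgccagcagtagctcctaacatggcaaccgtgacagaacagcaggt

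Reads were also counted on a copy. Gm9855, on chromosome 10 apart from Tdg, had 398, 453 and 493 counts in the libraries labelled KO, against 424, 504 and 480 in the expressing libraries, more than Tdg in each. Its log2 fold change was -0.30 (SE 0.106, adjusted p = 0.0479, edgeR). Tdg and Gm9855 together gave 15.2, 13.5 and 12.8 CPM in the libraries labelled KO, against 17.0, 16.1 and 17.4 CPM in the expressing libraries, and this sum did not overlap between groups. The counts do not say which locus the reads came from, so the level of Tdg is uncertain and its direction is not settled.

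Per exon length the genes spanned a wide range. In the libraries labelled KO, Dnmt3l was highest at 188 ± 7.98 CPM per kilobase, followed by Dnmt3b at 82.3 ± 3.95 and then Dnmt1 at 45.2 ± 1.39 and Tet1 at 44.1 ± 1.13 (SD, n = 3), the last pair overlapping. In the expressing libraries Dnmt3b came first at 173 ± 3.37 CPM per kilobase and Dnmt3l next at 129 ± 13.2, ahead of Tet1 at 56.9 ± 6.19, Dnmt1 at 50.8 ± 3.82 and Uhrf1 at 49.7 ± 5.70, which overlapped their neighbours (SD, n = 3). Uhrf1 followed at 36.8 ± 1.34 CPM per kilobase in the libraries labelled KO.

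The lower part of the order was shared. Dnmt3a stood at 12.3 ± 0.315 CPM per kilobase in the libraries labelled KO and 19.9 ± 1.38 in the expressing libraries (SD, n = 3 each). Tet2 came next, with 5.20 CPM per kilobase in the libraries labelled KO and 7.98 in the expressing libraries. Tet3 had 1.85 in the libraries labelled KO and 1.72 in the expressing libraries, and Tdg was last, with 0.656 in the libraries labelled KO and 0.766 in the expressing libraries. As counted, none of these neighbours overlapped within a group. The place of Tdg is uncertain, because reads were also counted on its copy Gm9855. Of the summed counts of both, Tdg held 25.2% to 25.6% in the libraries labelled KO and 20.3% to 29.0% in the expressing libraries. The exchange of first place depended on the length used: by the longest annotated transcript Dnmt3l was first in both groups, at 309 ± 13.1 CPM per kilobase in the libraries labelled KO and 212 ± 21.6 in the expressing libraries, where it overlapped Dnmt3b at 205 ± 3.99 (SD, n = 3 each).

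**Figure D4:**
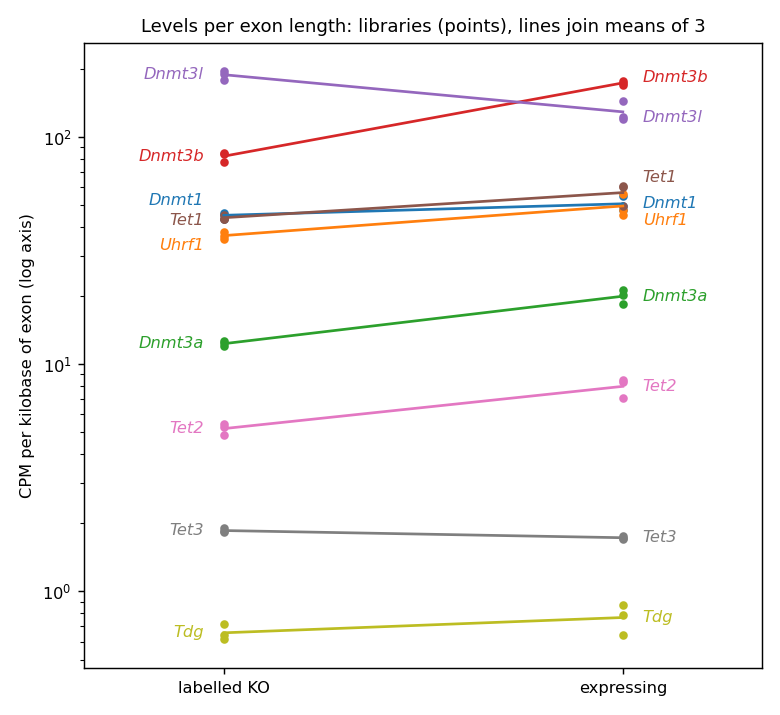
CPM per kilobase of exon on a log axis for the 9 genes, libraries labelled KO at left and expressing libraries at right; points are libraries and lines join the means of 3. Dnmt3l and Dnmt3b exchange the top places, at 188 and 82.3 in the libraries labelled KO and 129 and 173 in the expressing libraries.

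Expressing replicate 1 departed from its companions in both directions among the 9 genes. Against the mean of expressing replicates 2 and 3 on the log2 scale, it was lower in Tdg (-0.36), Tet1 (-0.28) and Tet2 (-0.26), whose transcripts have GC contents of 47.9%, 43.7% and 45.4%. It was higher in Uhrf1 (0.27), Dnmt3l (0.25), Dnmt1 (0.18) and Dnmt3a (0.14), with GC contents from 51.9% to 54.0%, while in Dnmt3b (-0.03) and Tet3 (-0.01), with GC contents of 53.1% and 53.4%, it lay close to its companions. Without this library all 6 calls were kept: the log2 fold changes were -1.05 for Dnmt3b, -0.61 for Dnmt3a, 0.66 for Dnmt3l, -0.31 for Uhrf1, -0.42 for Tet1 and -0.67 for Tet2, with adjusted p-values of at most 6.81e-08 (edgeR), and Dnmt1, Tet3 and Tdg again did not pass. In that fit 52.5% of all tested genes were called, 27.0% upward and 25.6% downward.

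Cell state markers moved in the same comparison, in which 19.2% of all tested genes rose and 20.8% fell. All 18 listed primitive endoderm markers rose and 0 fell (edgeR), and DESeq2 also gave 0 downward. Their summed level was 2175 to 2208 CPM in the libraries labelled KO, against 942.5 to 1067 CPM in the expressing libraries. None of these markers was at 0. Lrp2, an endocytic receptor and the most abundant of them, rose by 0.83 (SE 0.0537), and Srgn, a proteoglycan core protein, by 3.65 (SE 0.158). All 13 pluripotency genes fell and 0 rose, also by DESeq2. Their median change was -0.97, with -0.29 for Tdgf1, the most abundant, and -1.68 for Klf2. Scaled by library totals 11 of them fell, and without expressing replicate 3 the number was 10, with 0 rising in either setting. Of 9 formative genes 7 fell and 1 rose (Otx2 -0.33, Fgf15 -1.43); 2 rose without expressing replicate 1.

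Of 12 tested genes of the 2-cell-like state 10 rose and 0 fell, also by DESeq2 and at an unadjusted p under 0.05. This is 83.3% called, against 40.0% of all tested genes, where 19.2% rose. The list's summed level was 54.5 to 65.1 CPM in the libraries labelled KO, against 26.3 to 31.9 CPM in the expressing libraries. Usp17la and Zscan4d rose by 1.64 and 1.00, and both belong to families of near-identical copies. Of 12 fibroblast feeder markers 5 rose and 1 fell, with summed levels of 219 to 401.4 CPM in the libraries labelled KO, against 217.2 to 268.5 CPM in the expressing libraries. The most abundant, Fbln2, did not pass (0.26, SE 0.292), and Dcn rose by 2.10. Those fibroblast counts were 3 and 3 without KO replicate 2, and 3 rose without any 1 of the expressing replicates. The part of these markers in the values of the 9 genes was not tested.

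The partners and regulators of the writers mostly fell: of 19 listed genes, 13 fell and 0 rose (edgeR; DESeq2 and an unadjusted p under 0.05 also gave 0 upward). This is 68.4% called, against 40.0% of all tested genes. The list's median was -0.29 on the log2 scale. Prdm14, a PR-domain factor known in mouse ES cells for holding down the de novo methyltransferase genes, fell to 1.83 ± 0.201 CPM in the libraries labelled KO, against 11.01 ± 0.607 CPM in the expressing libraries (SD, n = 3 each; log2 fold change -2.58, SE 0.12, adjusted p = 1.34e-06, edgeR). Trim28, the corepressor that zinc finger proteins use to keep imprints and retroelements methylated, stood at 901.4 ± 16.4 CPM in the libraries labelled KO and 1861 ± 189 CPM in the expressing libraries (SD, n = 3 each; -1.05, SE 0.0726, adjusted p = 9.81e-06, edgeR). Scaled by library totals, 1 gene of the list was higher.

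Of 18 base excision and demethylation partners 7 fell and 2 rose (median -0.18), so that 9 of 18 were called, against 40.0% of all tested genes. The decreases included Smug1, a uracil and hydroxymethyluracil glycosylase (-0.64, SE 0.106), and Apex1, the abasic site endonuclease (-0.58, SE 0.054), which stood at 179.8 ± 3.59 CPM in the libraries labelled KO and 269.0 ± 8.98 CPM in the expressing libraries (SD, n = 3 each). The stress-inducible Gadd45g (1.39, SE 0.129) and Gadd45b (0.76, SE 0.102) were the 2 that rose. Without expressing replicate 1, 5 of the list rose.

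Genes listed as methyl-CpG readers numbered 3 higher and 1 lower of 10 (median 0.11), or 40.0% called, against 40.0% of all tested genes. Mbd2 (0.62, SE 0.08) and Zbtb38 (0.40, SE 0.0944), both binders of methylated DNA, rose, and Mbd3, a subunit of the NuRD complex whose mammalian form binds methylated DNA poorly, fell (-0.49, SE 0.113). The other gene that rose was Mbd5 (0.34, SE 0.0751), and a place on this list does not mean that a gene binds methylated DNA. Scaled by library totals 5 of the list were higher.

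Genes of the methyl donor cycle and of TET cofactors numbered 1 higher and 8 lower of 18 tested among 20 listed (median -0.20), so 9 of 18 were called, against 40.0% of all tested genes; Bhmt and Nnmt were too low to test. Slc23a1, a transporter of vitamin C, the reductant that TET enzymes use, fell. It had 7.80 ± 0.243 CPM in the libraries labelled KO, against 20.6 ± 0.566 CPM in the expressing libraries (SD, n = 3 each). Its log2 fold change was -1.40 (SE 0.0799, adjusted p = 3.36e-06, edgeR). The other vitamin C transporter listed, Slc23a2, did not pass (-0.055, SE 0.058, adjusted p = 0.481, edgeR). Slc23a2 was more abundant, at 87.8 CPM in the libraries labelled KO and 91.2 CPM in the expressing libraries. Gnmt, glycine N-methyltransferase, had 0.797 ± 0.0399 CPM in the libraries labelled KO and 1.44 ± 0.294 CPM in the expressing libraries (SD, n = 3 each; -0.86, SE 0.213, adjusted p = 0.0105, edgeR). Ogt, the O-GlcNAc transferase that binds TET proteins, was the gene that rose (0.41, SE 0.0726). Without expressing replicate 1, 2 rose.

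Germline genes whose promoters are known to be methylated in somatic cells went both ways. Of 17 tested among 18 listed, 5 rose and 2 fell (median 0.17), with Asz1 too low to test. The share called, 41.2%, was near the 40.0% of all tested genes. Slc25a31, a germ cell ADP/ATP carrier, stood at 5.13 ± 0.265 CPM in the libraries labelled KO and 2.42 ± 0.888 CPM in the expressing libraries (SD, n = 3 each; 1.07, SE 0.223, adjusted p = 0.0045, edgeR), and Piwil2, a piRNA pathway protein, rose by 0.63 (SE 0.0825). Sycp3, of the synaptonemal complex, fell (-1.08, SE 0.242), as did the meiotic cohesin Stag3 (-0.32, SE 0.0675). Sycp3 had 23.4, 24.8 and 26.2 CPM in the libraries labelled KO, against 29.9, 61.6 and 65.5 CPM in the expressing libraries. Expressing replicate 1 thus lay near the libraries labelled KO for Sycp3. Leaving out expressing replicate 1 gave 8 that rose and 4 that fell, and leaving out expressing replicate 2 gave 1 that fell. DNA methylation itself was not measured in these libraries.

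**Figure D5:**
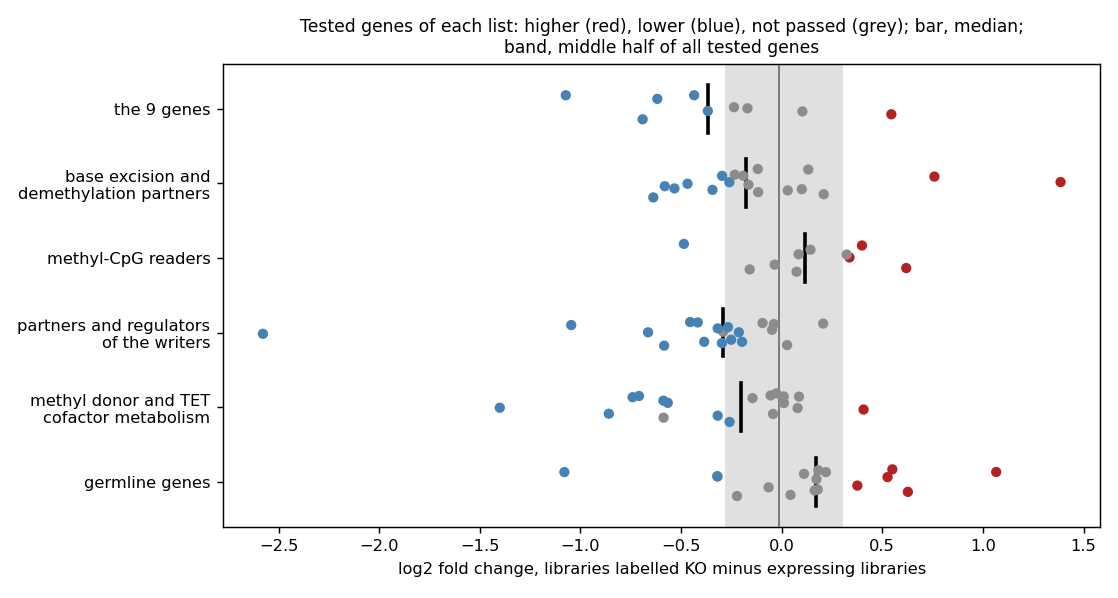
Log2 fold change, libraries labelled KO minus expressing libraries, of every tested gene in the 6 lists, red where higher and blue where lower at an adjusted p under 0.05 (edgeR), grey otherwise, with list medians as bars and the interquartile range of all tested genes as a grey band. The partners and regulators of the writers have no red point and a median of -0.29, while the medians of the readers and germline genes, 0.11 and 0.17, lie above that of all tested genes (-0.01).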

How the data were processed

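The authors deposited a table of raw, whole-number read counts per Ensembl gene for 6 libraries; the submitters' processing notes name mm10, HTSeq (0.6.1p1), STAR (2.5.3a), cutadapt (1.10) and bcl2fastq (2.20.0.422), with settings not given in the sources used. The kit is stranded and selects poly(A) RNA, per the labels' protocols. Columns were matched to samples by title. Symbols, positions and lengths came from GENCODE M21 of the same build, by identifier (55141 matched), and start regions from RefSeq, GRCm38.p6.

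Counts were fitted in R 4.3.3 with edgeR 4.0.16: filterByExpr (minimum count 10, total 15), TMM scaling, group as the only term, robust glmQLFit and glmQLFTest, Benjamini-Hochberg adjustment over 17778 genes and a threshold of 0.05. The common biological coefficient of variation was 9.05%. CPM uses TMM-scaled totals; 3 counts equal 0.0581 to 0.0961 CPM, a floor for counting error only. The step was run on counts simulated from the fitted means and dispersions, with a small set of changed genes. The simulation held no outlying library, so it does not check the fit under the spread seen here. Alternatives were DESeq2 1.42.0, other scalings and filters, each library left out, a replicate block and removal of a GC trend. Besides the 9 genes, the text names up to 2 higher and 2 lower called genes of at least 1 CPM with the largest change per pathway list. Slc23a2 was added beside Slc23a1, and Mbd5 beside the other listed readers that rose. Per marker list the text names the most abundant gene and the called gene with the largest change. Neighbours and copies were taken by overlap or shared 50-base stretches. The genes and lists were chosen with earlier results of these data known.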

Additional observations from a re-analysis of the deposited data

How the results depend on the processing

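The decreases of Dnmt3b, Dnmt3a, Tet2, Uhrf1 and Tet1 and the increase of Dnmt3l kept their direction and their call in all 14 alternatives. Their log2 fold changes ran from -1.10 to -0.98 for Dnmt3b, -0.74 to -0.60 for Dnmt3a, -0.67 to -0.53 for Tet2, -0.50 to -0.31 for Uhrf1, -0.43 to -0.275 for Tet1 and 0.495 to 0.66 for Dnmt3l. Tet3 and Tdg passed in none and Dnmt1 in 3. No result of the 9 genes changed sign. Same-numbered libraries did not deviate together (correlations of 0.02, -0.03 and 0.04). These values give no sign of pairing but cannot exclude it, because expressing replicate 1 stood apart from its group. With the replicate block 3243 genes were higher and 3401 lower, against 3422 and 3695. Of the 9 genes 1 was higher and 5 were lower with the block, as without it. Leaving out each replicate gave 2521 to 4794 higher and 2635 to 4548 lower genes overall. Counts of lists moved by over 1.5 times in some settings. Base excision partners higher were 2, against 4 with library totals and 5 without expressing replicate 1 or with the GC trend removed. Readers higher were 3, against 5 with library totals; partners of the writers higher 0, against 1; and methyl donor genes higher 1, against 2, also 2 without expressing replicate 1. Germline genes higher were 5, against 8 with library totals or without expressing replicate 1, and lower 2, against 4 with the GC trend removed. Formative genes higher were 1, against 2 with the GC trend removed, and fibroblast markers lower 1, against 2 without a filter. The cause was not tested. The sequence that Tdg shares with its copies, and its counts of at most 206, limit what can be said of it.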
